A study of Homo sapiens with 40 samples.

Results

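Hypoxia, glycolysis and angiogenic factor genes were described across 10 lines of H1299 cells, which come from a human non-small cell lung cancer. The group held 41 genes chosen by name: factors and sensors of the hypoxia pathway, angiogenic ligands and receptors, transporters, enzymes and regulators of glycolysis, and collagen prolyl hydroxylases. All 41 were found among the 59251 gene symbols counted, and 37 were among the 19703 genes that passed the filter on low counts. The 4 that did not pass were FLT1, CA9, CA12 and SLC16A1, with 60, 20, 7 and 59 counts summed over all 40 libraries.

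The study measured RNA by sequencing in 4 biological replicate cultures of each line and set lines edited in MYO10 or JAG1 beside controls and unedited lines. Unedited lines were parental H1299 (no editing), the leader line 3L2 and the follower line 3F2, all labelled wild-type for MYO10 and JAG1. In collective invasion, leader cells head the invading strand and follower cells trail them. The edited lines had all been through CRISPR-Cas9, including the controls: wild-type clones 38 and 75 (genotype MYO10 JAG1 WT), clones 35 and 72 with JAG1 knocked out, clones 98 and 99 with MYO10 knocked out, and clone 84. Clone 84 is a MYO10 knockdown by its genotype label and a knockout by its title, and is called the knockdown clone here. Each edited line is 1 clone, so a genotype rests on 1 or 2 clones, and for clone 84 the effect of the genotype and that of the clone cannot be told apart. No label names an oxygen level or a hypoxic treatment for any line.

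Library totals ran from 40038816 to 44013445 counts, and the cultures of a line correlated with Spearman coefficients of at least 0.990. MYO10 was at 63.4 ± 5.82 and 52.00 ± 5.08 CPM (counts scaled to a common library total, mean ± SD, n = 4) in the knockout clones and 149.8 ± 27.3 in the knockdown clone, against 491 ± 79.9 and 441 ± 66.9 in the wild-type clones. JAG1 was at 32.4 ± 1.76 CPM in knockout clone 35 and 6.49 ± 0.296 in clone 72, against 44.2 ± 9.63 and 40.5 ± 1.38 in the wild-type clones. JAG1 RNA was thus still present in clone 35, and the positions of the edits are not given in the sources used here. In unedited lines MYO10 was at 312 ± 81.6 CPM (parentals), 645 ± 75.2 (leaders) and 0.112 ± 0.144 (followers). JAG1 was at 295 ± 53.6, 139 ± 18.7 and 17.5 ± 2.62 CPM in the same order. Followers, though labelled wild-type, thus had the least MYO10 RNA of the 10 lines and less JAG1 RNA than clone 35. Both wild-type clones had less JAG1 RNA than parentals and leaders. Of the mesenchymal markers, VIM was at 1020 to 2815 CPM over the libraries, while CDH2 ran from 0.0681 to 124 and FN1 from 14.7 to 501. Of the epithelial markers, EPCAM and CDH1 were at no more than 0.236 CPM in any library. The epithelial keratins KRT8 and KRT18 ran from 3.37 to 660 and from 48.0 to 843 CPM. LDHA, the lactate dehydrogenase subunit typical of glycolytic tumour cells, had 26 counts over all 40 libraries and is no member of the group. The labels do not explain this low count, and it cannot be read as absence of LDHA RNA from the cells.

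Cells sense oxygen through prolyl hydroxylases of the EGLN family, which mark the alpha subunits HIF1A and EPAS1 (HIF-2 alpha) for destruction while oxygen is present. In low oxygen the alpha subunits pair with ARNT or ARNT2, bind DNA at hypoxia response elements and raise transcription of genes for glucose uptake, glycolysis, lactate export and blood vessel growth. Much of this control acts on protein stability, which RNA levels do not show, and many lung carcinoma lines run glycolysis at a high rate in ordinary culture.

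The hypoxia response element has the core ACGTG or GCGTG, which was searched on both strands of RefSeq promoters of build GRCh38.p14, from 250 bases before to 50 bases after each start. A palindromic CACGTG counted on both strands. Of 36 members with a promoter in the table, 32 (88.9%) held a core at any of their starts, against 52.4% of 27305 genes. Counted by window, with several starts for some genes, the shares were 66.7% of 63 member windows and 48.4% of 35116 windows. ARNT2, VEGFA, NDRG1, SLC2A3 and SLC16A1 had no promoter there. Members were chosen by name as genes of these pathways, so the shares are a description and no test. Promoters of 4 genes are shown because their levels are described below: EPAS1, ANGPTL4 and ADM, which differed between lines, and PGK1, a textbook hypoxia target that differed little. They lie on the plus strand at chr2:46297157-46297456, chr19:8363905-8364204, chr11:10304823-10305122 and chrX:78103998-78104297, in that order. Capitals mark a core, read as CACGT or CACGC where it lies on the minus strand.

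EPAS1: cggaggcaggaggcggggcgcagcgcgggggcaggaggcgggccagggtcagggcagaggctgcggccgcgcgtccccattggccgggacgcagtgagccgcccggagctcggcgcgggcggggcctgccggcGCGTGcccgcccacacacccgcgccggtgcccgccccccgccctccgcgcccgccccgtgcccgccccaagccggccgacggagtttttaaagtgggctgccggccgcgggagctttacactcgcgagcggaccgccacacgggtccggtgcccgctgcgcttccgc
ANGPTL4: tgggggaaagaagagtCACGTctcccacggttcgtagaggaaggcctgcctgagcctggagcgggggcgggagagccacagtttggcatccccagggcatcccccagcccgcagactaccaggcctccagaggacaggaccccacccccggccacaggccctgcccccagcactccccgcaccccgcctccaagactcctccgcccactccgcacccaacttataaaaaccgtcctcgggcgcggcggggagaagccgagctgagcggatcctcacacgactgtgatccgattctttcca
ADM: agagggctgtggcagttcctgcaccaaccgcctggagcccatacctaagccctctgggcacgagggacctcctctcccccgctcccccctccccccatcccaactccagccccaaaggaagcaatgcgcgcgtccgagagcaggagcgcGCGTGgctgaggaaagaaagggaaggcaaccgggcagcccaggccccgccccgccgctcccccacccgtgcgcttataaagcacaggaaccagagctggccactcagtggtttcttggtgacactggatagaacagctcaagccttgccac
PGK1: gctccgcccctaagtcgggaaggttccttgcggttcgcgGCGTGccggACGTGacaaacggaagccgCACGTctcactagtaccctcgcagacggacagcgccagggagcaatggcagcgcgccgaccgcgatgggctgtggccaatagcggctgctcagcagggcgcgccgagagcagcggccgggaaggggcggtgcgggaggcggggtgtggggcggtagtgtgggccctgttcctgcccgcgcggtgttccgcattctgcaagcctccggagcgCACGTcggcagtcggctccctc

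EPAS1 and ADM held 1 GCGTG core each, ANGPTL4 held 1 ACGTG, and PGK1 held 3 ACGTG and 1 GCGTG. A match is a description of the letters and was not tested for binding.

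The genes that differed most between lines were EPAS1, which encodes HIF-2 alpha, and NDRG1, a stress-response gene induced by hypoxia. The highest and lowest line means of EPAS1 were 294-fold apart, and those of NDRG1 582-fold apart. Both folds are imprecise, since the lowest means rested on few counts: 0.166 CPM for EPAS1 in clone 72 and 0.0304 for NDRG1 in followers. On the log2 CPM scale (prior count 2) the range over lines was 7.91 for EPAS1 and 7.87 for NDRG1, against a median of 1.08 over the 37 members and 1.19 over all genes tested. The 15 glycolytic enzymes had a median range of 0.88, with PKM, the final enzyme of glycolysis, at 0.37. Angiogenic ligands and receptors had a median range of 1.70, sensors and factors 3.33, and the 3 transporters 3.18. Members at their highest mean numbered 8 in leaders, 8 in followers and 7 in JAG1 knockout clone 35, and members at their lowest numbered 9 in JAG1 knockout clone 72 and 7 in clone 35. How many of all genes tested were highest or lowest in each line was not counted, so these numbers have no background.

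**Figure D1:**
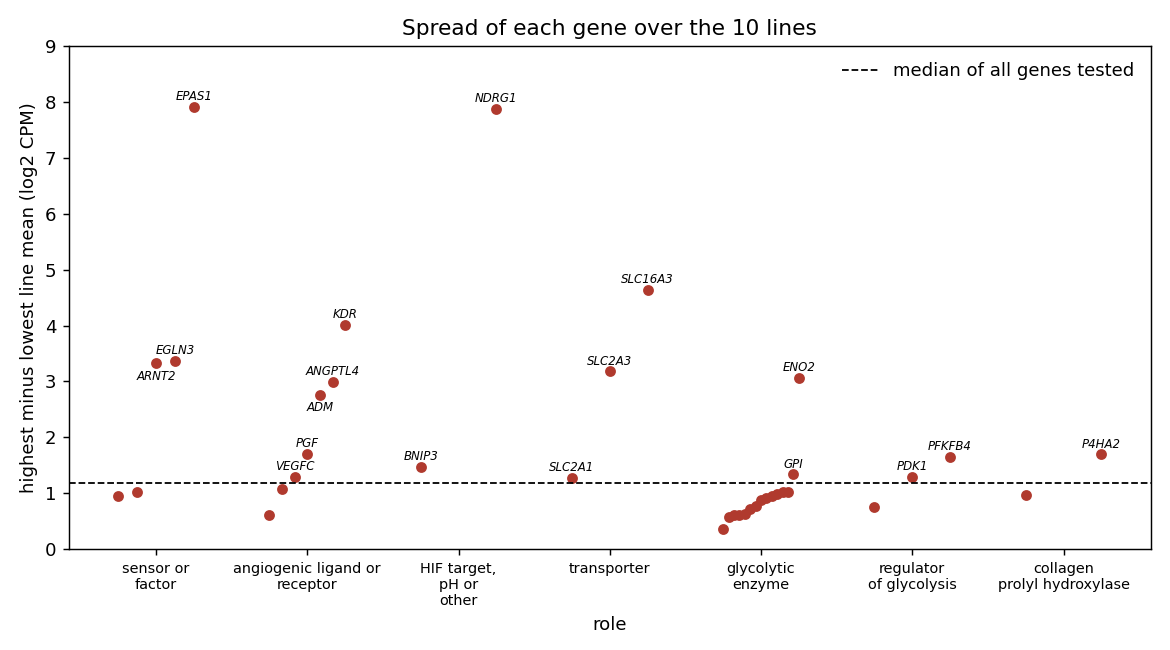
Range over the 10 lines (highest minus lowest line mean, log2 CPM) of each of the 37 genes tested, grouped by role, with the median of all genes tested as a dashed line. EPAS1 and NDRG1 stand near 7.9, and 13 of the 15 glycolytic enzymes lie at or below the dashed line.

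EPAS1, on chromosome 2 from 46297407 to 46386697 (GRCh38), was high in JAG1 knockout clone 35 and nearly silent in JAG1 knockout clone 72. It measured 2.15, 1.29, 2.04 and 2.07 CPM in the parental cultures, 9.75, 11.1, 10.01 and 10.4 in leaders and 4.60, 4.60, 4.33 and 3.19 in followers. Wild-type clones 38 and 75 had 1.38, 1.27, 1.11 and 1.14 CPM and 0.758, 0.722, 0.957 and 0.742 CPM. The wild-type clones thus lay below all unedited lines but for the lowest parental culture, which was within the range of clone 38. JAG1 knockout clone 35 had 44.4, 47.9, 45.4 and 57.2 CPM, and clone 72 had 0.0736, 0.189, 0.142 and 0.259 CPM, from 3 to 11 counts a library. MYO10 knockout clone 98 had 16.7, 13.5, 26.6 and 16.99 CPM, clone 99 had 9.75, 16.02, 31.8 and 37.8 and knockdown clone 84 had 6.29, 5.80, 11.3 and 5.69. All 12 cultures of the MYO10-edited clones were above all 8 wild-type cultures, and the cultures of clone 99 spread from 9.75 to 37.8 CPM. In bulk RNA, fewer cells with a transcript and less of it per cell cannot be told apart. In the order of line means, clone 99 and clone 98, leaders and clone 84, and parentals and both wild-type clones were neighbours that did not pass the test (edgeR quasi-likelihood adjusted p from 0.128 to 0.352). Every other pair of neighbours passed it, down to clone 72 below wild-type clone 75 (edgeR adjusted p = 0.00688). Endothelial cells express EPAS1 strongly, and the 9 endothelial markers checked summed to line means of 0.562 CPM in clone 72 to 10.8 in clone 98, of which ERG alone reached 9.39 CPM in 1 library. TIE1 and ESAM reached 1.81 and 1.21 CPM in a library, and PECAM1, CDH5 and EMCN no more than 0.508, 0.0726 and 0.0247. The sum was also high in clones 99, 35 and 84, at 9.81, 8.74 and 8.26 CPM. It was 7.91 CPM in clone 38, where EPAS1 was low, and 1.12 in leaders, where EPAS1 was higher. The relation of these markers to EPAS1 was not tested.

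HIF1A, the other alpha subunit, varied far less and was not called in any of the 10 comparisons. It measured 101, 101, 99.6 and 103 CPM in parentals, 134, 123, 123 and 127 in leaders and 159.8, 163, 156 and 156 in followers. The wild-type clones had 109, 115, 113 and 103 CPM in clone 38 and 106, 111, 108 and 109.8 in clone 75. Followers were the highest line, with no overlap with any other. JAG1 knockout clones had 76.4, 79.2, 79.2 and 75.2 CPM in clone 35 and 96.9, 97.2, 94.8 and 103 in clone 72. Among MYO10-edited lines it was 87.4, 82.2, 85.2 and 91.6 CPM in clone 98, 82.4, 88.1, 77.4 and 78.7 in clone 99 and 103, 109.8, 107 and 105 in clone 84. Clone 35 had the lowest mean, 77.5 ± 2.01 CPM, where EPAS1 was highest. Over the 10 line means of log2 CPM, EPAS1 and HIF1A had a Pearson coefficient of -0.35, a description of lines that share a common origin. By the same measure the member most like EPAS1 was NDRG1 (Pearson 0.80, Spearman 0.81), and EGLN1 was the most opposed (Pearson -0.76, Spearman -0.66).

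ARNT2, a partner of the alpha subunits, was near the limit of counting in most lines. Leader libraries held 6, 13, 8 and 13 counts and those of clone 84 held 32, 21, 15 and 18. In the other 8 lines a library held from 0 to 6 counts, the 6 being in clone 35. Leaders and clone 84 were thus the lines with more than a trace of ARNT2. EGLN3, a hypoxia-inducible prolyl hydroxylase, had 17, 23, 16 and 17 counts in follower libraries and 6, 5, 1 and 6 in parental ones. Elsewhere it had 0 to 2 counts a library, and none in clones 35 and 84. EGLN1, the main oxygen-sensing prolyl hydroxylase, ran from 63.97 ± 3.07 CPM in clone 35 to 124 ± 4.57 in clone 72 and was not called in any comparison.

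ANGPTL4, a secreted factor of lipid handling and vessel permeability, was lowest in followers and highest in MYO10 knockout clone 99. It measured 38.9, 35.7, 51.9 and 56.3 CPM in parentals, 40.99, 26.03, 35.1 and 29.97 in leaders and 10.6, 6.01, 5.07 and 6.73 in followers. Wild-type cultures had 15.2, 13.3, 20.02 and 13.6 CPM in clone 38 and 16.7, 16.2, 17.03 and 24.6 in clone 75. Followers overlapped with no other line, and all wild-type cultures lay below all cultures of the other edited clones, the closest being 24.6 CPM in clone 75 beside 24.9 in clone 84. JAG1 knockout cultures had 35.3, 34.9, 34.8 and 31.5 CPM in clone 35 and 27.2, 29.8, 30.03 and 30.9 in clone 72. MYO10-edited cultures had 39.5, 40.4, 35.5 and 47.4 CPM in clone 98, 59.1, 55.4, 46.6 and 58.98 in clone 99 and 26.3, 29.9, 44.9 and 24.9 in clone 84. From clone 72 up to clone 99, none of the 6 steps between neighbouring lines in the order of means passed the test (edgeR adjusted p from 0.222 to 0.847). Lines further apart in this order can still differ. Clone 99 was above leaders (log2 0.74, edgeR adjusted p = 0.00103), while clone 98 did not differ from leaders by the test (log2 0.30, edgeR adjusted p = 0.168).

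ADM encodes adrenomedullin, a vasodilator peptide that supports vessel growth, and was highest in JAG1 knockout clone 35. Its levels were 37.2, 38.2, 23.6 and 51.03 CPM in parentals, 19.03, 20.6, 15.8 and 18.7 in leaders and 40.6, 30.95, 29.5 and 21.7 in followers. Clone 38 had 49.9, 46.2, 29.7 and 38.5 CPM and clone 75 had 33.1, 38.1, 29.1 and 36.3. Leaders were below all wild-type cultures. ADM in JAG1 knockout clone 35 was 92.3, 102, 95.1 and 111 CPM and clone 72 had 67.7, 64.1, 71.6 and 70.3, above all 8 wild-type cultures. The 2 MYO10 knockout clones did not overlap, at 78.1, 100.3, 71.4 and 82.9 CPM in clone 98 and 25.9, 44.9, 42.1 and 36.1 in clone 99, and knockdown clone 84 had 20.9, 20.04, 8.25 and 13.3. Clone 84 and leaders had the lowest means, which did not differ by the test (edgeR adjusted p = 0.4).

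VEGFA, the main growth factor of blood vessels, stayed within a 2.11-fold range of line means. It had 40.7, 40.8, 38.3 and 42.5 CPM in parentals, 51.2, 49.8, 43.3 and 39.6 in leaders and 39.1, 36.6, 33.4 and 35.6 in followers. Wild-type clones had 39.1, 36.3, 42.7 and 39.7 CPM in clone 38 and 25.97, 34.5, 34.7 and 32.1 in clone 75. Clone 38 overlapped each unedited line, while leaders and followers did not overlap. JAG1 knockout clone 35 was the lowest line, at 25.3, 24.01, 21.6 and 21.2 CPM, and clone 72 the highest by mean, at 49.7, 47.95, 48.3 and 48.5. MYO10-edited clones had 43.02, 39.7, 40.03 and 42.7 CPM in clone 98, 43.9, 39.4, 47.01 and 42.6 in clone 99 and 43.6, 43.1, 55.6 and 44.3 in clone 84. EPAS1 and VEGFA thus stood at opposite ends in the 2 JAG1 knockout clones.

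PGF, placental growth factor, was low throughout and lowest in the JAG1 knockout clones. Parentals had 1.99, 1.52, 1.34 and 1.32 CPM, leaders 0.635, 1.04, 0.864 and 1.22 and followers 1.49, 1.56, 1.27 and 1.40. Clone 38 had 1.81, 1.89, 1.63 and 1.52 CPM of PGF and clone 75 1.96, 1.59, 1.28 and 1.09. For PGF, clone 35 had 0.712, 0.658, 0.719 and 0.584 CPM and clone 72 0.294, 0.590, 0.593 and 0.659, all below the lowest wild-type culture. PGF in the MYO10-edited clones was 1.48, 2.15, 1.44 and 2.18 CPM in clone 98, 1.13, 1.12, 1.13 and 0.798 in clone 99 and 1.16, 1.41, 2.84 and 1.67 in clone 84. KDR, the main VEGF receptor of endothelial cells, had 33, 26, 31 and 28 counts in follower libraries and none in any leader or clone 99 library. Other lines held 0 to 4 counts of KDR a library. Followers were thus the line with more than a trace of this receptor, at 0.723 ± 0.0544 CPM. VEGFC, a growth factor of lymphatic vessels, ran from 4.36 ± 0.399 CPM in leaders to 10.8 ± 1.25 in followers, and VEGFB from 13.2 ± 1.58 in clone 75 to 20.1 ± 1.53 in leaders. FLT1, a second VEGF receptor, had 26 of its 60 counts in parental libraries and none in clones 38, 75 and 72.

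NDRG1 was close to the counting limit in followers, clone 75 and clone 72, and clearly expressed in clones 35, 98 and 99. It measured 0.662, 0.414, 1.03 and 0.918 CPM in parentals, 2.88, 1.95, 3.05 and 2.17 in leaders and 0.0475, 0.0503, 0.0239 and 0 in followers, whose libraries held 2, 2, 1 and 0 counts. The wild-type clones did not overlap, at 0.857, 0.588, 0.963 and 1.04 CPM in clone 38 and 0.0892, 0.0481, 0.0912 and 0.116 in clone 75. JAG1 knockout clones were further apart, at 10.4, 9.24, 8.67 and 8.08 CPM in clone 35 and 0.0736, 0.118, 0.190 and 0.259 in clone 72. Clone 72 was within the range of wild-type clone 75 or above it, and clone 35 was above every wild-type and unedited culture. MYO10 knockout clone 98 had 6.92, 8.98, 10.7 and 11.8 CPM, clone 99 had 14.9, 15.4, 20.3 and 20.2 and knockdown clone 84 had 3.07, 1.56, 4.82 and 3.22. Clones 98 and 35 did not differ by the test (edgeR adjusted p = 0.778), and clone 99 was above both. BNIP3, a mitophagy receptor induced by hypoxia, was highest in leaders. It had 17.1, 15.8, 17.5 and 15.1 CPM in parentals, 61.6, 44.4, 36.9 and 41.8 in leaders and 24.9, 26.7, 24.2 and 23.98 in followers. In wild-type clones BNIP3 was 37.9, 38.6, 24.2 and 26.6 CPM (clone 38) and 20.9, 26.3, 18.3 and 25.1 CPM (clone 75). The follower and parental ranges were narrow, and clone 38 spread over 24.2 to 38.6 CPM. BNIP3 was 24.5, 27.5, 26.4 and 27.1 CPM in clone 35 and 37.00, 36.5, 37.8 and 37.9 in clone 72. Clones 98, 99 and 84 had 24.9, 22.8, 21.2 and 24.7, then 23.8, 18.2, 18.04 and 21.97, then 18.2, 19.2, 12.8 and 17.7 CPM of BNIP3. These 3 clones stayed at or below 24.9 CPM. CA9 and CA12, carbonic anhydrases of the cell surface that are classical hypoxia targets, had 0 to 5 counts summed over the 4 libraries of any line. For CA9, 38.5% of exon bases are shared with ARHGEF39 on the opposite strand, and reads of the pair cannot be told apart without a stated strand setting.

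**Figure D2:**
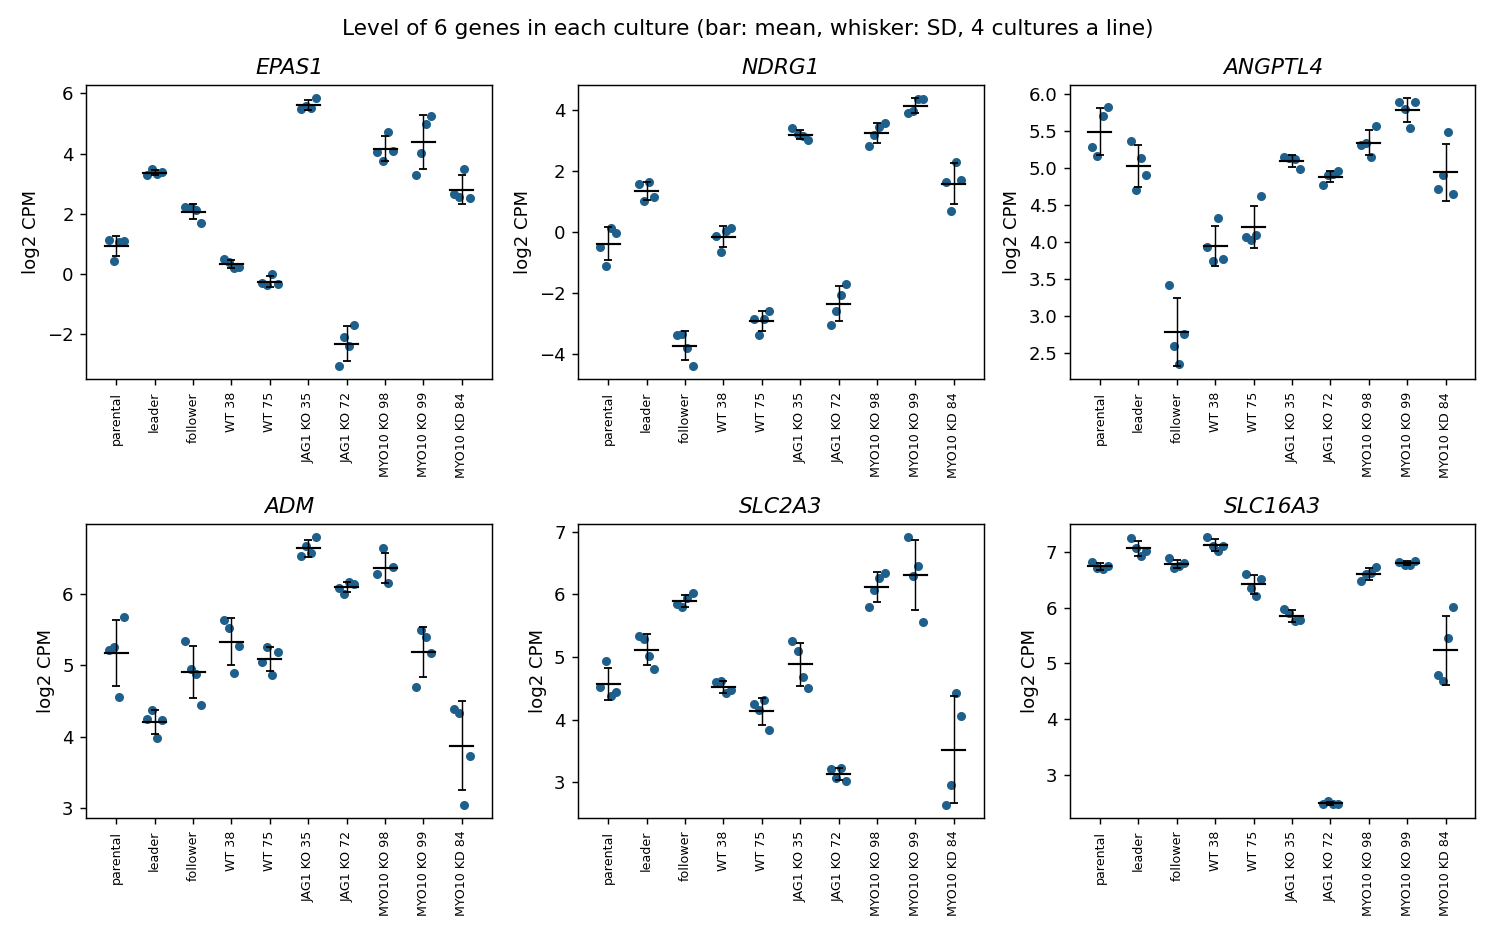
Level of EPAS1, NDRG1, ANGPTL4, ADM, SLC2A3 and SLC16A3 in each of 40 cultures (log2 CPM, points), with the mean and SD of the 4 cultures of each line (bars). EPAS1 and NDRG1 are high in clones 35, 98 and 99 and low in clone 72, and SLC16A3 is lowest in clone 72.

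The glucose transporter genes differed in how far they ranged: SLC2A1 (GLUT1) over 2.44-fold and SLC2A3 (GLUT3, a high-affinity form) over 9.60-fold. SLC2A1 had 49.3, 49.8, 52.2 and 59.1 CPM in parentals, 92.2, 78.1, 73.7 and 76.2 in leaders and 100.4, 90.1, 79.7 and 85.7 in followers. Clones 38 and 75 had 89.98, 84.3, 78.1 and 67.4 and 53.7, 59.2, 54.4 and 56.8 CPM of SLC2A1. Parentals and clone 75 overlapped, below leaders, followers and clone 38. The JAG1 knockout clones had 60.3, 56.2, 61.3 and 69.2 CPM in clone 35 and 34.1, 36.6, 37.97 and 37.2 in clone 72, the lowest line. MYO10-edited clones had 76.3, 67.2, 59.9 and 82.01, 49.4, 46.4, 51.6 and 69.5 and 85.9, 86.02, 75.5 and 84.7 CPM in clones 98, 99 and 84. SLC2A1 was not called in any comparison.

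SLC2A3 had 22.9, 30.7, 20.6 and 21.5 CPM in parentals, 40.5, 38.9, 32.4 and 27.97 in leaders and 57.8, 55.4, 61.1 and 64.6 in followers. Its wild-type values were 24.3, 24.4, 21.3 and 22.1 CPM in clone 38 and 18.9, 17.7, 19.7 and 14.1 in clone 75. Followers were above all parental, leader and wild-type cultures. JAG1 knockout clone 35 had 37.96, 34.1, 25.5 and 22.6 CPM and clone 72 had 9.15, 8.33, 9.29 and 8.05, below all wild-type cultures. MYO10 knockout clone 98 had 55.7, 67.01, 76.8 and 80.6 CPM, clone 99 121, 78.5, 88.03 and 47.2 and knockdown clone 84 6.19, 7.69, 21.4 and 16.6. Both knockout clones were above all wild-type cultures, and the knockdown clone was not, spreading from 6.19 to 21.4 CPM. Reads of SLC2A3 can be shared with its close paralog SLC2A14, so its counts are uncertain.

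SLC16A3 encodes MCT4, the lactate exporter of glycolytic cells, and was about 25.2-fold lower in JAG1 knockout clone 72 than in the highest line. Parentals had 114, 104, 103 and 108 CPM, leaders 152, 134, 121 and 129 and followers 118, 105, 107 and 112. Clone 38 had 154, 139, 129 and 137 CPM of SLC16A3 and clone 75 had 97.2, 81.2, 74.2 and 91.5. The 2 wild-type clones did not overlap. With JAG1 knocked out, clone 35 had 62.6, 59.9, 53.8 and 54.8 CPM and clone 72 had 5.52, 5.69, 5.52 and 5.48, with almost no spread. MYO10 knockout clones had 88.6, 97.8, 98.6 and 106 CPM in clone 98 and 113, 109, 108 and 115 in clone 99, and knockdown clone 84 had 27.5, 25.6, 43.7 and 64.4. Cultures of clone 84 spread from 25.6 to 64.4 CPM, all below the wild-type clones. SLC16A1 (MCT1), the other lactate carrier of the group, had 3 to 10 counts over the 4 libraries of a line. As for LDHA, the labels do not explain so low a count, and it cannot be read as absence of the RNA.

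Most glycolytic enzymes varied little between lines. Per kilobase of merged exons (GENCODE 29), mean levels over lines were 572 CPM for ENO1, 584 for LDHB, 426 for TPI1, 296 for PKM, 128 for PGK1 and 75.5 for PGAM1. Among the forms of phosphofructokinase, on the same per-kilobase scale, PFKP was at 49.6 CPM, PFKM at 18.7 and PFKL at 11.1. The hexokinases HK1 and HK2 were at 10.5 and 11.6 CPM per kilobase. LDHB shares 33.4% and ALDOA 42.3% of exon bases with a gene of the same strand in that annotation, and LDHB, PGK1, TPI1, ENO1, PKM and PGAM1 have near-identical pseudogenes or paralogs, so these counts are uncertain. Levels of each enzyme over the 10 lines, in CPM, ran from 42.8 to 80.8 for HK1 and 52.5 to 90.03 for HK2, which phosphorylate glucose. The phosphofructokinases, which commit sugar to glycolysis, ran from 67.2 to 136 CPM for PFKL, 106 to 162 for PFKM and 154 to 296 for PFKP. The aldolases, which split the sugar, ran from 8.48 to 15.6 CPM for ALDOA and 0.334 to 0.656 for ALDOC, and the isomerase TPI1 from 938 to 1537. In lower glycolysis, levels ran from 161 to 249.6 CPM for PGAM1, 2475 to 3764 for ENO1 and 2232 to 2885 for PKM. Of the 15 enzymes, GPI and ENO2 were called in at least 1 comparison.

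PGK1, which makes the first ATP of glycolysis and carries 4 cores in its promoter, stayed within a 2.04-fold range. It had 824, 844, 811 and 834 CPM in parentals, 1036, 872, 861 and 843 in leaders and 728, 698, 708 and 672 in followers. Clone 38 had 781, 797, 687 and 657 CPM of PGK1, and clone 75 had 638, 697, 584 and 591. Leaders and parentals overlapped at the top. JAG1 knockout clones had 679.8, 675, 699 and 720.3 CPM (clone 35) and 700.0, 719, 723 and 769 CPM (clone 72). MYO10-edited clones had 469, 472, 413 and 419 CPM in clone 98, 707, 685, 633 and 632 in clone 99 and 763, 785, 649.7 and 753 in clone 84. Clone 98 was the lowest line, below all other cultures. LDHB, a lactate dehydrogenase subunit, had 1732, 1766, 1659 and 1832 CPM in parentals, 1612, 1588, 1616 and 1542 in leaders and 2051, 1993, 2073 and 1987 in followers. Wild-type clones had 1441, 1558, 1388 and 1436 CPM of LDHB in clone 38 and 1432, 1599.8, 1415 and 1419 in clone 75. They were lower than followers without overlap. LDHB was 2125, 2128, 2174 and 2305 CPM in clone 35, the highest line, and 1455, 1470.1, 1509.7 and 1569 in clone 72. Clones 98, 99 and 84 had 1764, 1738, 1597 and 1723, then 1841, 1827, 1660.3 and 1739, then 1981, 2083, 1935 and 1859.5 CPM. LDHB and PGK1 were not called in any comparison.

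ENO2, the neuronal form of enolase, was the enzyme with the widest range. It had 14.4, 13.9, 15.2 and 15.2 CPM in parentals, 24.8, 24.99, 20.5 and 23.7 in leaders and 16.2, 17.3, 14.5 and 20.6 in followers. Clones 38 and 75 had 9.42, 9.29, 10.2 and 7.96 and 10.4, 8.61, 7.84 and 8.35 CPM of ENO2. All wild-type cultures were below all unedited ones. Of the JAG1 knockouts, clone 35 had 6.11, 6.22, 5.18 and 4.04 CPM and clone 72 2.65, 2.74, 3.10 and 2.59, below all wild-type cultures. MYO10-edited clones had 5.86, 8.15, 10.5 and 9.92 CPM in clone 98, 12.1, 11.3, 12.03 and 9.07 in clone 99 and 13.6, 10.6, 14.6 and 20.8 in clone 84. GPI, the isomerase after hexokinase, had 26.6, 26.7, 26.2 and 26.9 CPM in leaders and 58.9, 59.2, 64.1 and 55.8 in followers, and line means of 23.5 to 38.6 CPM elsewhere.

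PFKFB4, which sets the level of a phosphofructokinase activator, was low and variable. It had 4.52, 5.18, 5.73 and 3.91 CPM in parentals, 8.50, 6.75, 6.10 and 5.56 in leaders and 5.17, 6.41, 3.83 and 5.33 in followers. Clone 38 had 6.04, 6.30, 4.00 and 3.00 CPM of PFKFB4 and clone 75 had 3.77, 3.25, 2.33 and 2.99. Leaders and clone 75 did not overlap, and the means of the other 3 lines lay between theirs. JAG1 knockout clone 35 had 2.77, 1.95, 1.88 and 2.49 CPM, the lowest line, and clone 72 had 3.46, 3.82, 3.60 and 3.69. Clones 98, 99 and 84 had 3.52, 4.46, 4.84 and 4.31, then 11.7, 8.07, 6.06 and 4.54, then 5.89, 5.59, 5.27 and 7.60 CPM of PFKFB4. PFKFB3, its more abundant relative, ran from 43.8 ± 1.84 CPM in clone 72 to 74.01 ± 5.32 in clone 35. PDK1, a kinase that keeps pyruvate out of the mitochondrion, ran from 17.1 ± 1.08 CPM in clone 35 to 42.6 ± 8.09 in wild-type clone 38. P4HA2, a prolyl hydroxylase of collagen, had 30.5, 25.2, 27.03 and 23.9 CPM in parentals, 29.5, 31.8, 28.7 and 24.4 in leaders and 13.6, 14.2, 13.8 and 18.3 in followers. Wild-type clones 38 and 75 had 20.6, 17.9, 21.1 and 15.1 and 19.8, 19.7, 19.3 and 14.5 CPM of P4HA2. Leaders and parentals were above both. P4HA2 was 16.7, 17.6, 17.5 and 19.3 CPM in clone 35, and 16.6, 16.9, 16.2 and 17.9 in clone 72. MYO10-edited clones had 7.70, 10.03, 9.19 and 8.24 CPM of P4HA2 in clone 98, 12.1, 13.2, 14.9 and 9.89 in clone 99 and 23.3, 23.1, 23.3 and 23.3 in clone 84. Clone 98 was the lowest line and clone 84 lay above all wild-type cultures. P4HA1, the other collagen prolyl hydroxylase, ran from 17.1 ± 0.924 CPM in clone 35 to 33.8 ± 4.03 in leaders, and neither gene was called.

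**Figure D3:**
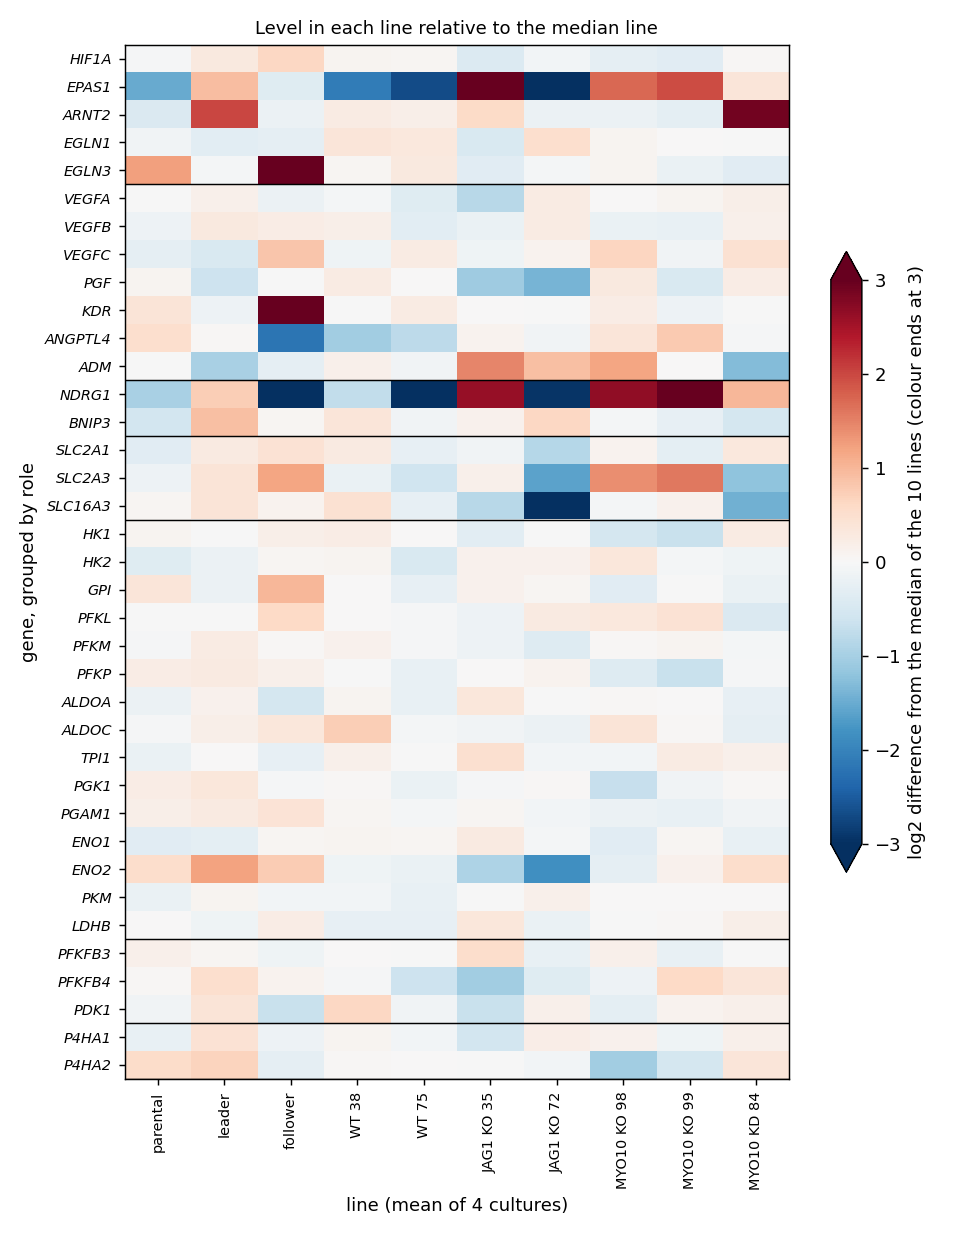
Mean log2 CPM of each of the 37 genes tested in each line minus the median of the 10 lines, with genes grouped by role and the colour scale ending at 3. Wide colour changes are seen for EPAS1, NDRG1, SLC2A3 and SLC16A3 and for the low-count genes ARNT2, EGLN3 and KDR, and the block of glycolytic enzymes is pale except for ENO2 and for GPI in followers.

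Calls required an adjusted p under 0.05 and a fold change of 1 or more, up or down, in log2 units. Each adjusted p is from edgeR's quasi-likelihood test over all genes tested, and each log2 fold change is given ± its standard error. Where a genotype had several clones, the p kept for a gene was the largest found in any pair of lines, and the standard error reflects variation among cultures and leaves out variation among clones. P-values measure the spread between replicate cultures, estimated over all 10 lines together. That spread was not equal. Counts of the closest pair of cultures had a chi-square per degree of freedom of 2.45 in clone 35 and 2.46 in clone 72. In the other lines it was 4.20 to 14.5. P-values for the JAG1 knockout clones thus do not rest on the spread of those clones alone. Comparisons share lines (the wild-type clones, leaders and parentals each enter several), so their results are not independent of each other. Of the 37 genes tested, 21 were not called in any of the 10 comparisons, while NDRG1 was called in 8, EPAS1 in 7 and ADM in 5. How often all genes were called over the 10 comparisons was not counted, so these numbers have no background.

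Leaders had more NDRG1, ARNT2, ANGPTL4, EPAS1 and PDK1, and followers had more KDR, EGLN3, VEGFC and GPI. NDRG1 was higher in leaders (log2 6.23 ± 0.49, adjusted p = 5.05e-14), as were ANGPTL4 (log2 2.21 ± 0.21, adjusted p = 5.27e-11), EPAS1 (log2 1.30 ± 0.29, adjusted p = 0.00021) and PDK1 (log2 1.06 ± 0.11, adjusted p = 1.07e-10), by edgeR. VEGFC (log2 -1.30 ± 0.12, adjusted p = 2.44e-13) and GPI (log2 -1.16 ± 0.07, adjusted p = 6.42e-19) were lower in leaders by the same edgeR test. KDR had no count in leaders and was at least 39.1-fold higher in followers, taking 3 counts over the 4 leader libraries as the floor. EGLN3 rested on 2 counts in leaders and 73 in followers, a ratio of 36.3 (exact 95% counting interval 9.70 to 305.5), and ARNT2 on 40 counts in leaders and 3 in followers, a ratio of 13.4 (4.27 to 67.7). Called members numbered 5 higher and 4 lower of 37, or 24.3%, against 25.4% of all genes tested, so the share of members was close to the background. The median log2 fold change over the 37 was 0.13, against 0.01 over all genes. The 157 genes tested within 5 Mb of GPI on chromosome 19 had a median log2 fold change of -1.88, and 98.7% of them were lower in leaders, whereas neighbours of EPAS1 (51 genes) and ANGPTL4 (281 genes) had medians of 0.08 and 0.02. The 21 genes near VEGFC had a median of -0.56, with 81% of them lower in leaders. The part of these regions in the GPI and VEGFC differences was not tested.

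**Figure D4:**
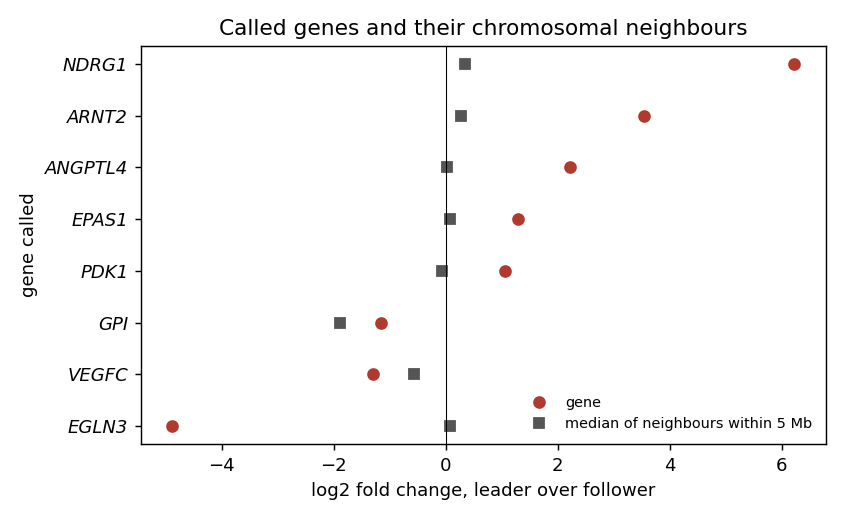
Fitted log2 fold change (leader over follower) of 8 of the 9 called genes and the median of the genes tested within 5 Mb of each; KDR is left out, having no count in leaders. GPI, at -1.16, lies to the right of its neighbours' median of -1.88, and the medians of ANGPTL4, EPAS1 and PDK1 lie near 0.

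Against parentals, leaders had more EPAS1, NDRG1, BNIP3 and ARNT2 and less ADM and EGLN3, while followers had less NDRG1 and ANGPTL4. In leaders, EPAS1 (log2 2.45 ± 0.32, adjusted p = 1.5e-07), NDRG1 (log2 1.73 ± 0.27, adjusted p = 2.05e-06) and BNIP3 (log2 1.495 ± 0.14, adjusted p = 1.88e-10) rose and ADM fell (log2 -1.02 ± 0.23, adjusted p = 0.000571), by edgeR. ARNT2 had 40 counts in leaders and 1 in parentals (ratio 42.2, counting interval 7.15 to 1707), and EGLN3 had 2 against 18 (parental over leader 8.54, interval 2.04 to 75.9), with 1 count in a library of each line. That made 4 higher and 2 lower of 37, or 16.2%, against 9.76% of all genes. ADM had a log2 fold change of -0.82 without parental replicate 4 and -0.94 without leader replicate 3, past the adjusted p but short of the fold threshold. In followers, EPAS1 (log2 1.15 ± 0.33, adjusted p = 0.00351), SLC2A3 (log2 1.32 ± 0.26, adjusted p = 4.27e-05) and VEGFC (log2 1.12 ± 0.11, adjusted p = 1.99e-11) rose relative to parentals by edgeR. EGLN3 (log2 2.06 ± 0.45) and KDR (log2 4.50 ± 0.57) were also called higher, but both passed the filter only through followers, so these calls are no independent support. ANGPTL4 (log2 -2.68 ± 0.21, adjusted p = 9.18e-13) and NDRG1 (log2 -4.49 ± 0.60, adjusted p = 4.43e-08) fell by the same edgeR test. These were 5 higher and 2 lower of 37, or 18.9%, against 20.3% of all genes. The EPAS1 log2 fold change in followers was 0.97 without parental replicate 2. HIF1A differed in both, below the fold threshold (log2 0.32 ± 0.04, adjusted p = 3.04e-08 in leaders and log2 0.65 ± 0.04, adjusted p = 2.73e-17 in followers, edgeR).

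Wild-type clones had been through editing, and against unedited leaders they had less EPAS1, NDRG1, ARNT2 and ENO2 and more ADM. EPAS1 fell (log2 -3.38 ± 0.27, adjusted p = 5.57e-09), as did NDRG1 (log2 -3.18 ± 0.28, adjusted p = 9.91e-06), ARNT2 (log2 -2.60 ± 0.52, adjusted p = 0.00136) and ENO2 (log2 -1.38 ± 0.13, adjusted p = 3.99e-09), while ADM rose (log2 1.02 ± 0.20, adjusted p = 0.00237), by edgeR. Called members were 1 higher and 4 lower of 37, or 13.5%, against 9.98% of all genes. The ADM log2 fold change was between 0.94 and 1.00 without any 1 of leader replicate 3, clone 38 replicates 1 and 2 and clone 75 replicates 2 and 4. Between wild-type clones 38 and 75, NDRG1 was called (log2 3.27 ± 0.47, adjusted p = 9.56e-07, edgeR), 1 of 37 or 2.7%, against 4.37% of all genes. At an adjusted p under 0.05 alone, 16 members were higher in clone 38 and 1, VEGFC, was lower, with 12.3% of all genes higher and 13.2% lower. The 16 included 8 of the 15 glycolytic enzymes, such as HK2 (log2 0.52 ± 0.11, adjusted p = 0.000389) and PGK1 (log2 0.22 ± 0.06, adjusted p = 0.00785), and the transporters SLC2A1 (log2 0.51 ± 0.10, adjusted p = 0.000224) and SLC16A3 (log2 0.70 ± 0.15, adjusted p = 0.000661), by edgeR. This is the difference between 2 clones of the same genotype, which every comparison with the wild-type clones contains.

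Relative to wild-type clones, JAG1 knockout clones had less SLC16A3, PGF and ENO2 and more ADM. SLC16A3 fell (log2 -2.61 ± 0.12, adjusted p = 0.0158), with pairs of clones from -4.65 to -0.57, as did PGF (log2 -1.41 ± 0.17, adjusted p = 0.000979) and ENO2 (log2 -1.22 ± 0.12, adjusted p = 0.00365), by edgeR. ADM rose (log2 1.14 ± 0.16, adjusted p = 0.0358, edgeR), with pairs from 0.74 to 1.55. These were 1 higher and 3 lower of 37, or 10.8%, against 2.06% of all genes. EPAS1 and NDRG1 were not called, since the pairs of clones differed in direction, from -2.86 to 5.93 for EPAS1. ADM lost its call, at adjusted p from 0.0545 to 0.157 in edgeR, without clone 38 replicate 3 or 4 or any 1 of the 4 cultures of clone 72. SLC16A3 lost its call, at adjusted p from 0.0512 to 0.0751 in edgeR, without clone 75 replicate 1 or 4 or clone 35 replicate 3 or 4.

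Clones 35 and 72, both JAG1 knockouts, differed in EPAS1, NDRG1, SLC16A3, SLC2A3 and VEGFA. Clone 35 was higher for EPAS1 (log2 8.17 ± 0.44, adjusted p = 7.36e-17), NDRG1 (log2 5.80 ± 0.32, adjusted p = 3.43e-18), SLC16A3 (log2 3.38 ± 0.18, adjusted p = 9.64e-17) and SLC2A3 (log2 1.79 ± 0.27, adjusted p = 1.22e-06), by edgeR. VEGFA was lower in clone 35 (log2 -1.08 ± 0.08, adjusted p = 3.57e-15, edgeR). The 5 called members were 13.5% of 37, against 21% of all genes, and the difference between these shares was not tested. Genes near SLC2A3, SLC16A3 and VEGFA moved the same way by a median log2 of 0.46, 0.34 and -0.43, and their part in these differences was not tested, while genes near EPAS1 had a median of -0.11 and those near NDRG1 -0.31. The 4 epithelial markers checked summed to 1210 to 1503 CPM in clone 35 and 51.6 to 57.5 in clone 72, nearly all of it from the keratins KRT8 and KRT18, since EPCAM and CDH1 were at no more than 0.236 CPM in any library. The part of this keratin difference in the result was not tested.

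Relative to wild-type clones, MYO10 knockout clones had more NDRG1, EPAS1, SLC2A3 and ANGPTL4. NDRG1 rose by the largest amount of the 37 (log2 5.55 ± 0.21, adjusted p = 2.52e-14), with pairs of clones from 3.47 to 7.63, by edgeR. EPAS1 (log2 4.40 ± 0.24, adjusted p = 2.9e-11), SLC2A3 (log2 1.92 ± 0.18, adjusted p = 7.62e-06) and ANGPTL4 (log2 1.48 ± 0.14, adjusted p = 1.93e-05) also rose, by edgeR. Each was higher in all 8 knockout cultures than in all 8 wild-type cultures, and the share of all genes without overlap was not counted. Genes within 5 Mb of SLC2A3 and ANGPTL4 had median log2 fold changes of 0.31 and 0.23. Those near EPAS1 and NDRG1 had medians of 0.10 and 0.20. The part of these regions in the differences was not tested. The 4 higher and 0 lower made 10.8% of 37, against 8.06% of all genes, and at an adjusted p under 0.05 alone 6 members were higher and 4 lower, with 12.5% of all genes higher and 11.2% lower. None of the 15 glycolytic enzymes was called, and PGK1 had pairs that differed in direction, from -0.72 to 0.08. The same sum, again nearly all KRT8 and KRT18, was 981 to 1178 CPM in clone 98 and 518 to 1019 in clone 99, against 130 to 237 in the wild-type clones, and its part in the result was not tested. Between clones 98 and 99, ADM was called (log2 1.16 ± 0.22, adjusted p = 5.71e-05, edgeR), 1 of 37 or 2.7%, against 9.55% of all genes.

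Knockdown clone 84 had more ARNT2, NDRG1 and EPAS1 and less ADM and SLC16A3 than the wild-type clones. NDRG1 (log2 3.51 ± 0.26, adjusted p = 2.89e-07) and EPAS1 (log2 2.88 ± 0.28, adjusted p = 3.66e-07) rose, by edgeR. ARNT2 was also called higher (log2 3.60 ± 0.45), but it passed the filter only through clone 84, so this call is no independent support. SLC16A3 (log2 -1.44 ± 0.14, adjusted p = 1.19e-06) and ADM (log2 -1.26 ± 0.21, adjusted p = 0.000237) fell by the same edgeR test. These were 3 higher and 2 lower of 37, or 13.5%, against 7.19% of all genes. SLC2A3 and ANGPTL4, which rose in the knockout clones, were not called in clone 84 (SLC2A3 log2 -0.63 ± 0.24, adjusted p = 0.267, edgeR; ANGPTL4 log2 0.89 ± 0.16, adjusted p = 0.0025, edgeR). With counts summed per clone, so that the clone is the unit, edgeR called 0 members and 0 of all genes in the 4 comparisons over several clones. At an unadjusted p under 0.05 it then found 3 of the 37 members for wild-type clones against leaders, 4 for JAG1 knockout, 5 for MYO10 knockout and 2 for knockdown. Of all 19703 genes tested it found 1536, 1135, 2376 and 977, in the same order.

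**Figure D5:**
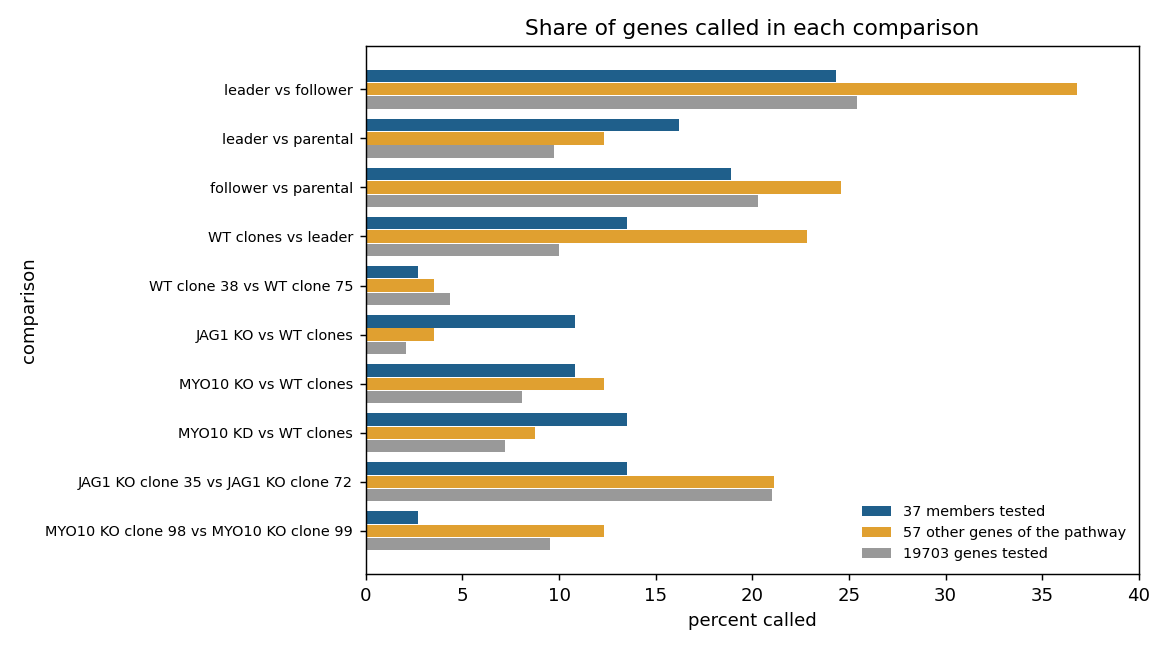
Percent of genes called in each of 10 comparisons for the 37 members, 57 other genes of the pathway and all genes tested (bars from 0). Members run from 2.7% between the wild-type clones, and again between the MYO10 knockout clones, to 24.3% between leaders and followers, where 25.4% of all genes were called.

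The other genes of these pathways were read from a list of 74, of which 57 passed the filter and 28 were called in at least 1 comparison. That last count was not made for all genes tested. NRP1, a co-receptor of VEGF, was called in 7 comparisons and was at 45.3 ± 4.997 CPM in leaders, 3.00 ± 0.276 in parentals and 1.17 ± 0.256 in followers. NRP1 was 1.38 ± 0.286 and 1.82 ± 0.523 CPM in wild-type clones and rose in JAG1 knockout (log2 2.34 ± 0.13, adjusted p = 9.15e-11), MYO10 knockout (log2 2.67 ± 0.13, adjusted p = 8.3e-14) and knockdown clones (log2 3.27 ± 0.14, adjusted p = 1.23e-16), by edgeR. Its relative NRP2 was at 13.6 ± 0.701 CPM in followers, 10.4 ± 3.28 in clone 84, 2.44 ± 0.194 in clone 38 and 0.0700 ± 0.0435 in clone 75. STC1, a secreted glycoprotein induced by hypoxia, was at 5.13 ± 1.53 CPM in JAG1 knockout clone 35 and 197 ± 8.05 in clone 72 (log2 -5.26 ± 0.38, adjusted p = 1.94e-13, edgeR). That is opposite to EPAS1 in the same pair of clones, and STC1 also differed between clones 98 and 99 (log2 -2.95 ± 0.34, adjusted p = 1.13e-08, edgeR). Its relative STC2 fell in MYO10 knockout clones (log2 -2.27 ± 0.14, adjusted p = 6.51e-07, edgeR), to 12.3 ± 2.13 CPM in clone 98 and 4.78 ± 0.820 in clone 99. CA11, an inactive member of the carbonic anhydrase family, rose in the same comparison (log2 2.61 ± 0.18, adjusted p = 5.88e-07, edgeR), and CA2, a cytosolic form, fell in JAG1 knockout (log2 -1.44 ± 0.10, adjusted p = 0.00531, edgeR). PDK4, a starvation-induced relative of PDK1, had 531 counts in followers against 2 in leaders, a ratio of 264 (counting interval 72.8 to 2186). GAPDH, the glycolytic enzyme often used as a reference, ran from 4529.8 ± 136 CPM in clone 72 to 7589.8 ± 359.7 in clone 35 and was not called in any comparison.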

How the data were processed

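RNA of 40 libraries, 4 cultures of each of 10 lines, was sequenced, and the authors deposited a table of whole-number read counts per gene symbol. The submitters' processing notes name fastp 0.23.4, FastQC 0.12.0, MultiQC 1.24.1, STAR 2.7.11b, HTSeq 2.0.5 and the genome build hg38. The annotation release and how strand was treated in counting are not given in the sources used here, so overlapping and antisense genes may share reads.

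Columns were matched to samples by the labels, and 0 columns of per-sample values were left unused. Of 59251 symbols, 17548 had no count. Genes were kept with edgeR's filterByExpr at a minimum count of 10, which left 19703 genes with 99.96% of all counts. TMM factors ran from 0.952 to 1.06. CPM is the count scaled to a common total after TMM, and log2 CPM uses a prior count of 2. Totals of 40038816 to 44013445 counts per library set the precision, and counting intervals and floors cover counting error only.

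All 10 lines entered 1 model in edgeR 4.0.16 (R 4.3.3, quasi-likelihood test, 30 residual degrees of freedom, common biological variation 8.62%). Adjusted p-values are Benjamini-Hochberg over all genes kept, two-sided. In comparisons of several clones the largest p over the pairs of lines was kept, or 1 where pairs differed in direction, and the log2 fold change is the average over pairs. The test was also checked on simulated data. Alternatives were DESeq2 1.42.0, library totals in place of TMM, no filter, a fold threshold of 0.5, fits of the compared lines only, a replicate block, leaving out each library, and the clone as the unit.

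The members and the lists of other genes and markers were chosen with earlier results of these data known. Values are given per culture for the 14 members with the widest range over lines and for HIF1A, VEGFA, SLC2A1, PGK1 and LDHB, and as the range of line means for the rest. Neighbours in the order of line means were tested for 6 of the members called most often. GPI was given per culture in leaders and followers as a gene called there. Exon lengths and overlaps are from GENCODE 29, and promoters from RefSeq on GRCh38.p14.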

Additional observations from a re-analysis of the deposited data

Results flagged for a closer look

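In 150 groups of 4 cultures (members given per culture, with a group mean of at least 1 CPM), 11 had a culture that stood apart from the other 3 by Dixon's ratio at its 95% critical value. Chance gives about 1 in 20. EPAS1 was low in parental replicate 2, at 1.29 CPM against 2.04 to 2.15 in the others, and high in knockdown clone 84 replicate 3, at 11.3 against 5.69 to 6.29. That culture of clone 84 also had the highest VEGFA, 55.6 CPM against 43.1 to 44.3, and the lowest SLC2A1, 75.5 against 84.7 to 86.0. PGF was 0.798 CPM in MYO10 knockout clone 99 replicate 4, against 1.12 to 1.13. ANGPTL4 was 24.6 CPM in wild-type clone 75 replicate 4, against 16.2 to 17.0, and 31.5 in JAG1 knockout clone 35 replicate 4, against 34.8 to 35.3. PGK1 was 1036 CPM in leader replicate 1, against 843 to 872. LDHB was 1599.8 CPM in wild-type clone 75 replicate 2, against 1415 to 1432. P4HA2 was 18.3 CPM in follower replicate 4, against 13.6 to 14.2, and 14.5 in wild-type clone 75 replicate 4, against 19.3 to 19.8.

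For 3 of the members given per culture, the 2 JAG1 knockout clones lay on opposite sides of both wild-type clones, and the difference between clone 35 and clone 72 itself was called in edgeR (adjusted p under 0.05 and a log2 fold change of 1 or more). It was a log2 fold change of 8.17 for EPAS1, 1.79 for SLC2A3 and -1.08 for VEGFA. For SLC2A3 the difference of clone 35 from wild-type clone 38 did not pass the test (log2 0.38, edgeR adjusted p = 0.207).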

How the results depend on the processing

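With a fold threshold of 0.5 on the log2 scale, called members were 17 for leaders against followers, 12 for leaders and 14 for followers against parentals, 11 for wild-type clones against leaders, 6 between wild-type clones, 8 for knockdown, 16 between JAG1 knockout clones and 7 between MYO10 knockout clones. Genes called in all were then 8465, 3468, 7446, 3766, 2162, 786 (JAG1 knockout), 3230 (MYO10 knockout), 2983 (knockdown), 7766 and 4088, in the order of the comparisons. With the clone as the unit (3 residual degrees of freedom), edgeR called 0 members and 0 genes in the 4 comparisons over several clones, with 1536, 1135, 2376 and 977 genes at an unadjusted p under 0.05. Called members ran from 1 to 2 between clones 98 and 99 when single libraries were left out, with 2 without replicate 4 of clone 99. Of 43 calls of named members, 38 were kept under every alternative that gave them a value other than the clone unit (the fit of the compared lines only gave none for ARNT2 in 3 comparisons and EGLN3 in 1), and the 5 others, of ADM, SLC16A3 and EPAS1, each lost their call when certain single libraries were left out. No call of the 43 was lost with DESeq2, library totals, no filter or the block, and none reversed. Replicate numbers did not pair the cultures: deviations of same-numbered cultures had a median correlation of 0.0212 (180 pairs), against -0.0111 for others (540 pairs). With the replicate block, leaders against followers gave 9 members and 5011 genes, and no count moved by over 1.5 times. Library totals in place of TMM changed no highest level by over 4.14%. Depth limits ARNT2, EGLN3, KDR and the 4 genes that did not pass the filter.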
